A study of Homo sapiens with 16 samples.

Results

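HepG2, a human hepatocellular carcinoma cell line used as the liver part of a gut-liver microfluidic chip, was compared in mono-culture with and without free fatty acids (FFA). The comparison held 2 FFA libraries and 2 control libraries, and its members were every gene with a mean of at least 10 CPM over these 4 libraries, which left 5157 genes of 14833 with a read in any of them and of 20747 with a read in any of the 16 libraries of the series. CPM values give the reads of a gene relative to all reads of its library, so that libraries of different depth can be compared. The FFA groups received palmitic and oleic acid at 1:2 and a total of 1 mM, in medium with 1% fatty-acid-free albumin, whereas the controls received no FFA. The labels give 1 day of treatment, but the study describes RNA measurements for more than 1 treatment period, so the time behind these libraries is given only as labelled. The other groups of the series (the gut line Caco-2, and HepG2 sharing its medium with Caco-2) enter below only where co-cultured HepG2 is set beside mono-culture. A tumor line grown alone lacks the other cell types of the liver, and the p-values measure the spread between these libraries. The study's methods describe independent experiments for its mRNA sequencing, while the labels do not say which experiment or culture each library came from.

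Saturated fatty acids such as palmitate are known to disturb the membrane of the endoplasmic reticulum (ER), where secreted proteins are folded, while oleate is readily stored as triglyceride in lipid droplets. Cells answer a load of unfolded protein with the unfolded protein response, in which the sensors ATF6, IRE1 (acting through XBP1) and PERK (acting through ATF4) raise ER chaperones, the machinery that removes misfolded proteins, and genes of amino acid supply. The part that runs through ATF4 is shared with other stresses and is called the integrated stress response.

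The controls held 430815 and 1023029 reads and the FFA libraries 424538 and 274857, so that 1 read stood for 0.978 to 3.64 CPM and the floor of 3 reads for 2.93 to 10.9 CPM. These floors cover counting error alone, because the cDNA was amplified by PCR and carried no tags that would mark copies of one molecule. The members took 97.2% to 97.6% of the reads of these libraries. Over the members, log2 values correlated at 0.954 between the 2 controls and at 0.916 between the 2 FFA libraries (Pearson). FFA replicate 1 correlated at 0.935 with control replicate 1 and at 0.95 with control replicate 2. It was thus closer to the controls than to FFA replicate 2, and the part of depth in this was not tested. Of 17 liver markers 16 were members, with a summed level of 51387 to 63385 CPM. Of 18 gut markers, 12 or 13 were at 0 in each library, CDX2, CDH17 and MUC2 among them, and their sum was 248 and 184 CPM in the controls and 122.5 and 113 CPM with FFA. Most of that sum was TFF3, a secreted trefoil peptide (195 and 135 CPM against 82.4 and 80.1 CPM). Of 15 markers of blood, vessel, stromal and muscle cells, 12 were at 0 in each library, and the highest of the rest was LYZ, lysozyme, at 720 to 859 CPM. ACTA2, a smooth muscle actin of the same list, was at 20.9 and 15.6 CPM in the controls and 33.0 and 47.3 CPM with FFA. It had 9 to 16 reads per library, with an unadjusted p of 0.0148 and an adjusted p of 0.247 by limma. The extraction text in the labels speaks of myoblasts, but MYOD1, MYOG, DES and MYH2, which mark muscle cells, were among those at 0. Fewer cells of a type and less RNA per cell cannot be told apart in such bulk samples.

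Among the genes that rose with FFA, those with the smallest p, HERPUD1 and P4HB, encode proteins of the ER. At an adjusted p under 0.05 (limma, adjusted over 5157 genes), 18 genes (0.349%) passed, of which 16 rose (0.31% of those tested) and 2 fell (0.0388%). Of the 16, HERPUD1, P4HB, HSPA5, TMED2 and TRIB3 belonged to the lists of ER proteins and stress regulators, and their changes ran from 0.66 to 1.53 on the log2 scale. Both genes that fell, EEF1B2P2 and EEF1B2P3, are processed pseudogenes. The 4 libraries of each of these 18 genes did not overlap between the groups. An edgeR test on the recovered reads called 14 genes higher (0.271%) and 13 lower (0.252%), of which 14 were among the 18. The count of 18 rests on few libraries. It was 2 without either control library, 570 without FFA replicate 1 and 70 without FFA replicate 2. After quantile normalization 1 gene passed, with a constant prior variance 0 passed, and 713 genes (13.8%) had an unadjusted p under 0.05.

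**Figure D1:**
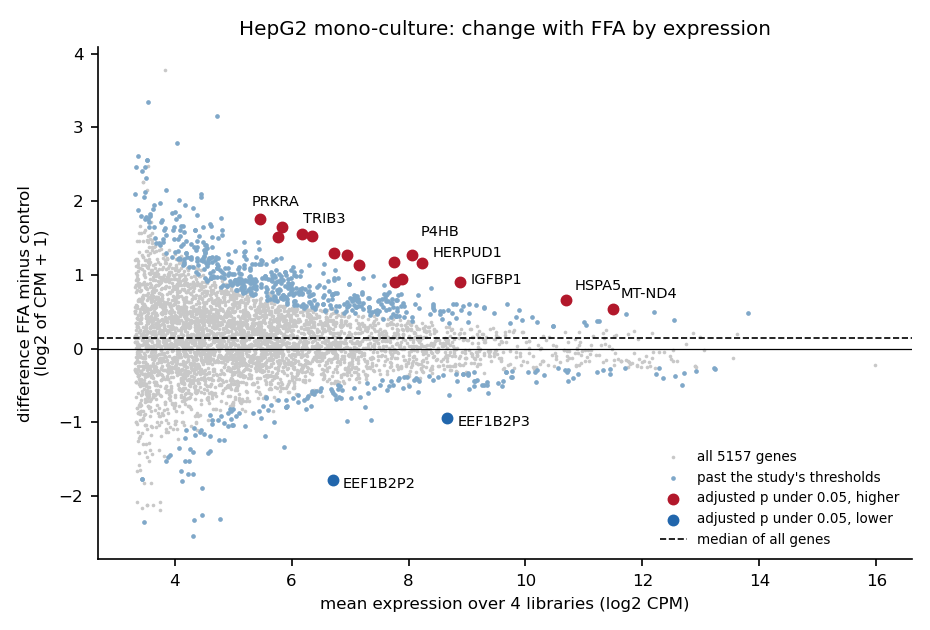
Each point is 1 of 5157 genes, with its mean expression over 4 libraries (log2 CPM) on the x axis and the difference FFA minus control (log2 of CPM + 1) on the y axis. Red and blue points are the 16 genes that rose and the 2 that fell at an adjusted p under 0.05, pale blue points passed the study's thresholds, and the dashed line at 0.14 is the median of all genes, so the bulk of the points lies slightly above 0.

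The whole distribution was shifted upward. The median change over all genes was 0.138 on the log2 scale (1.1-fold), and 61.4% of genes had a higher mean with FFA. Beside this shift, the share of reads from ribosomal protein genes was 24.7% and 25.5% in the controls and 23.9% and 21% with FFA, and its part in the shift was not tested. Under the study's own thresholds (an unadjusted p under 0.05 and at least a 1.2-fold change), 704 genes (13.7%) passed, of which 529 were higher (10.3%) and 175 lower (3.39%). That count was 294 and 338 without control replicate 1 and 2, and 1339 without FFA replicate 1. After median-ratio rescaling, which removes the shift, the same thresholds gave 324 higher (6.28%) and 393 lower (7.62%), so the excess of higher genes depends on the scaling. The groups did not overlap for 2344 genes (45.5%), with both FFA libraries above both controls for 1640 (31.8%) and below for 704 (13.7%). Since 2 libraries against 2 cannot give an exact two-sided permutation p under 0.333, the tests below rest on the spread shared across genes. Below, "rose" and "fell" are used for the 18 genes, and the unadjusted thresholds of the study are named where they are meant. Counts of list members under those thresholds are to be read against 10.3% higher and 3.39% lower over all genes, and a share near these is no result about a list.

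HERPUD1 (chromosome 16, 56932142 to 56944864, GRCh38), an ER membrane protein that takes part in the disposal of misfolded proteins, had the smallest p. Its expression was 181 and 189 CPM in the controls and 360 and 477 CPM with FFA, a 2.24-fold rise (log2 1.16 ± 0.19 (SE), adjusted p = 0.0159). P4HB (chromosome 17, 81843159 to 81860856), a protein disulfide isomerase that is also a subunit of the triglyceride transfer protein complex of the liver, was at 149 and 159 CPM without FFA and at 302 and 462 CPM with it. That was a rise of 1.27 ± 0.21 (SE) on the log2 scale with the same adjusted p of 0.0159. HSPA5 (chromosome 9, 125234853 to 125241382), the major ER chaperone, also called BiP, was the most abundant of the 5 genes from the lists of ER proteins and stress regulators. It was measured at 1335 and 1240 CPM in the controls and at 1868 and 2205 CPM with FFA (log2 0.66 ± 0.13 (SE), adjusted p = 0.0236). The edgeR test did not call HSPA5 (adjusted p = 0.122). For all 3 genes the lower FFA library stood above the higher control library by more than the controls differed from each other.

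**Figure D2:**
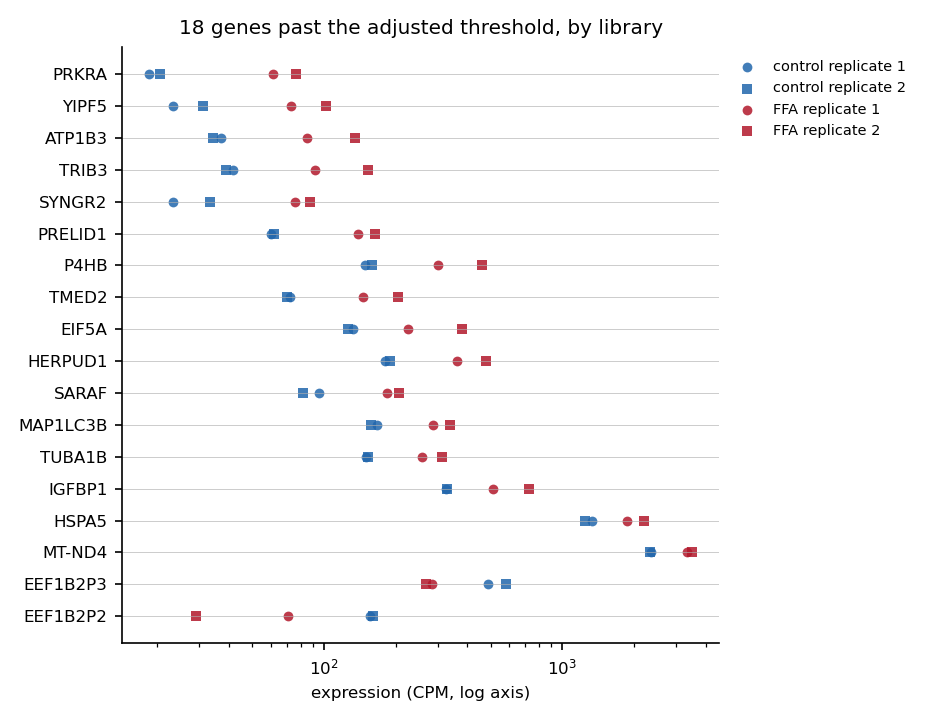
Expression of the 18 genes past the adjusted threshold on a log CPM axis, with blue points for the 2 control libraries and red points for the 2 FFA libraries. In each row the blue and red points are separate, and FFA replicate 2, the shallowest library, is the FFA library farther from the controls in all 18.

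Among the 27 ER chaperones and disulfide isomerases that were members, 11 passed the study's thresholds as higher and 0 as lower, with a median change of 0.376 beside 0.138 over all genes. HSP90B1 (GRP94), the ER form of a major heat shock protein, was at 2168 and 2071 CPM in the controls and at 2989 and 2532 CPM with FFA. PDIA3, which works with calnexin on glycoproteins, was at 643 and 666 CPM without and 973 and 1008 CPM with FFA. DNAJB9, a co-chaperone of HSPA5 and a typical target of XBP1, was scarcer, at 20.9 and 27.4 CPM in the controls and 40.1 and 72.8 CPM with FFA. PDIA4 and PDIA6, both disulfide isomerases, differed by 0.61 ± 0.20 (SE) and 0.52 ± 0.14 (SE) on the log2 scale. None of PDIA3, PDIA4, PDIA6, HSP90B1 and DNAJB9 passed the adjusted threshold, their adjusted p lying between 0.088 (PDIA3) and 0.194 (DNAJB9). At the other end HYOU1, another ER chaperone, was at 135 and 105 CPM without FFA and 144 and 80.1 CPM with it, so that its groups overlapped. Of 17 genes of ER-associated degradation, HERPUD1, SELENOS and RNF5 passed the study's thresholds as higher and 0 as lower. The list's median change was 0.230, and relative to all genes it ranged from -0.058 to 0.165 over alternative settings of the processing, so its direction was not held throughout. SEL1L, the scaffold of the main ER ubiquitin ligase, stayed at 34.8 and 31.3 CPM without FFA and 40.1 and 29.1 CPM with it (log2 0.05 ± 0.36 (SE)).

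Promoters of ER chaperone genes carry a known recognition element for ATF6 and XBP1, and the exact matches are shown because chaperone genes with the element can then be set beside those without. The ER stress element was searched on both strands as CCAAT, then 9 bases of any kind, then CCACG, in the RefSeq window of 250 bases before to 50 bases after each gene's start. In the stretches below, on GRCh38.p14 and 5′ to 3′ on the strand of the gene, capitals mark the matched element and all bases lie before the start.
HSPA5, chr9:125241383-125241417, minus strand: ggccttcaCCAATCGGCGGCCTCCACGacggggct
HSP90B1, chr12:103930208-103930347, plus strand: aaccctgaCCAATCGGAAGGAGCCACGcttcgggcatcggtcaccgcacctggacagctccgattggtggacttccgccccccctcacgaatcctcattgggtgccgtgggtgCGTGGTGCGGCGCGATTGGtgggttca
CALR, chr19:12938376-12938410, plus strand: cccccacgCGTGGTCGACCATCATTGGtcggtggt
CANX, chr5:179698770-179698804, plus strand: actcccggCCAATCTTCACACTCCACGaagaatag
CRELD2, chr22:49918546-49918580, plus strand: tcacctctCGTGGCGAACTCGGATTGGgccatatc
XBP1, chr22:28800595-28800629, minus strand: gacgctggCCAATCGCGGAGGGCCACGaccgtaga

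Of the 27 ER chaperone genes, 26 matched the promoter table and 5 of these (19.2%) held the element, beside 22 of all 27305 promoters (0.0806%) and 11 of the 3829 matched members (0.287%). Among its carriers HSPA5 rose, HSP90B1 and CANX (calnexin, 190 and 141 CPM without FFA, 273 and 233 CPM with it) passed the study's thresholds, and CALR and CRELD2 did not. CALR (calreticulin) was at 720 and 623 CPM in the controls and 773 and 786 CPM with FFA, and CRELD2 at 53.4 and 84.1 CPM and at 87.2 and 83.7 CPM. XBP1, the transcription factor whose message IRE1 splices, was at 72.0 and 54.7 CPM without and 73.0 and 113 CPM with FFA (log2 0.53 ± 0.28 (SE), adjusted p = 0.422). P4HB, the chaperone with the smallest p, had no match to any of the 4 motifs searched. Nor had DNAJB11, PDIA6, PDIA4, DNAJB9, ERP44 and TXNDC12, which passed the study's thresholds as higher. The core TGACGTGG of an element bound by XBP1 can overlap the second ER stress element. This core was found in 9 of 49 promoters of ER translocation and ER-Golgi transport genes (18.4%). It was in 0.795% of all promoters and 1.2% of those of matched members. Of its carriers in that list, ARF1 passed the study's thresholds as higher, and SEC62, KDELR3, SEC23A, COPA, COPB1, SRP19, STX5 and COPB2 did not.

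A second ER stress element (ATTGG, 1 base of any kind, then CCACG) was present in 0.0549% of all promoters and 0.131% of those of matched members. HERPUD1 held it, and so did HYOU1 and SDF2L1, whose groups overlapped. SDF2L1, another ER protein, was at 197 and 309 CPM without FFA and 269 and 346 CPM with it. HERPUD1 also held a match to TGATGNAA, the C/EBP-ATF element through which ATF4 acts. The promoter of ASNS, asparagine synthetase, held the C/EBP-ATF element as well. The stretches of HERPUD1 and ASNS are shown with their matches in capitals (the first match of HERPUD1 is on the opposite strand).
HERPUD1, chr16:56931958-56932043, plus strand: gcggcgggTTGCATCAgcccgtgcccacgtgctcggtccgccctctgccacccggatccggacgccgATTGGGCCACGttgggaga
ASNS, chr7:97872461-97872484, minus strand: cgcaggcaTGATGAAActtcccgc

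TGATGNAA was found in 3 of 11 promoters of amino acid supply genes (27.3%) and 6 of 16 of aminoacyl-tRNA synthetase genes (37.5%). It was in 3.67% of all promoters and 1.8% of those of matched members. Of its carriers in the supply list, ASNS and SLC3A2 passed the study's thresholds as higher, while MTHFD1L had the list's lowest change (-0.482). The synthetase carriers AARS, CARS, TARS, NARS, MARS and IARS did not pass, and CARS had the lowest change of that list (-0.301). WARS, FARSB and KARS, which passed as higher, had no match. A match describes the letters of these windows only.

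Of 16 regulators of the stress response, 5 passed the study's thresholds as higher and 0 as lower (median change 0.674). TRIB3, a pseudokinase induced through ATF4 and the transcription factor CHOP, rose from 41.8 and 39.1 CPM to 91.9 and 153 CPM (2.89-fold, adjusted p = 0.0236). DDIT3, which encodes CHOP, was at 92.9 and 129 CPM without FFA and 151 and 175 CPM with it (adjusted p = 0.29). ATF4 itself was more abundant, with 432 and 479 CPM without and 582 and 589 CPM with FFA (log2 0.36 ± 0.15 (SE)). PPP1R15A, the phosphatase subunit that ends the response, was at 20.9 and 28.4 CPM and at 44.8 and 47.3 CPM. ATF6 overlapped between the groups (30.2 and 24.4 CPM against 25.9 and 29.1 CPM). For the other 4 genes both FFA libraries lay above both controls, but only TRIB3 passed the adjusted threshold.

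Genes of serine, one-carbon and amino acid supply, which ATF4 is known to control, showed 8 of 15 members past the study's thresholds and 0 lower. PSAT1 and PHGDH, enzymes of serine synthesis, were at 149 and 151 CPM and at 139 and 149 CPM in the controls. With FFA they stood at 233 and 277 CPM (PSAT1) and 195.5 and 218 CPM (PHGDH). SHMT2, the mitochondrial serine hydroxymethyltransferase, was at 172 and 123.2 CPM and at 217 and 269 CPM, and ASNS at 78.9 and 76.3 CPM and at 130 and 127 CPM. The smallest adjusted p of the list was 0.132 (PSAT1). Of 19 aminoacyl-tRNA synthetases, WARS, FARSB and KARS passed the study's thresholds and 0 were lower. WARS, the tryptophan enzyme, was at 34.8 and 26.4 CPM without FFA and 56.5 and 87.3 CPM with it.

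Of 57 genes of protein targeting to the ER, translocation and ER-Golgi transport, 16 passed the study's thresholds as higher and 0 as lower, with a median change of 0.369. Of the 16, SRP68, SRP54, SRP9 and SRPRA belong to the signal recognition particle or its receptor, which bring nascent proteins to the ER. TMED2, a cargo receptor of COPI and COPII vesicles, rose from 71.9 and 70.4 CPM to 146 and 204 CPM (2.4-fold, adjusted p = 0.0236). KDELR2, which returns escaped chaperones to the ER, was at 107 and 88.0 CPM without FFA and 132 and 273 CPM with it, where FFA replicate 2 set most of the difference. The GTPases ARF4 and ARF1 differed by 0.74 ± 0.20 (SE) and 0.66 ± 0.19 (SE) on the log2 scale. SEC61B, a subunit of the translocation channel, was at 799 and 1026 CPM without and 775 and 797 CPM with FFA (log2 -0.20 ± 0.15 (SE), adjusted p = 0.556). YIPF5, a membrane protein of the ER and Golgi that was in no list, rose from 23.2 and 31.3 CPM to 73.0 and 102 CPM (3.12-fold, adjusted p = 0.0236). SARAF, an ER membrane protein that limits calcium entry, rose from 95.2 and 82.1 CPM to 184 and 207 CPM (2.19-fold, same adjusted p). Over the lists of ER chaperones, ER-associated degradation, stress regulators, and ER translocation and transport together, 35 of 117 members (29.9%) passed the study's thresholds as higher, beside 9.8% of the other 5040 genes. These lists were chosen with earlier results of these data known, so the comparison is a description and was not tested. The number of genes called higher also depends on the scaling, as given above.

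**Figure D3:**
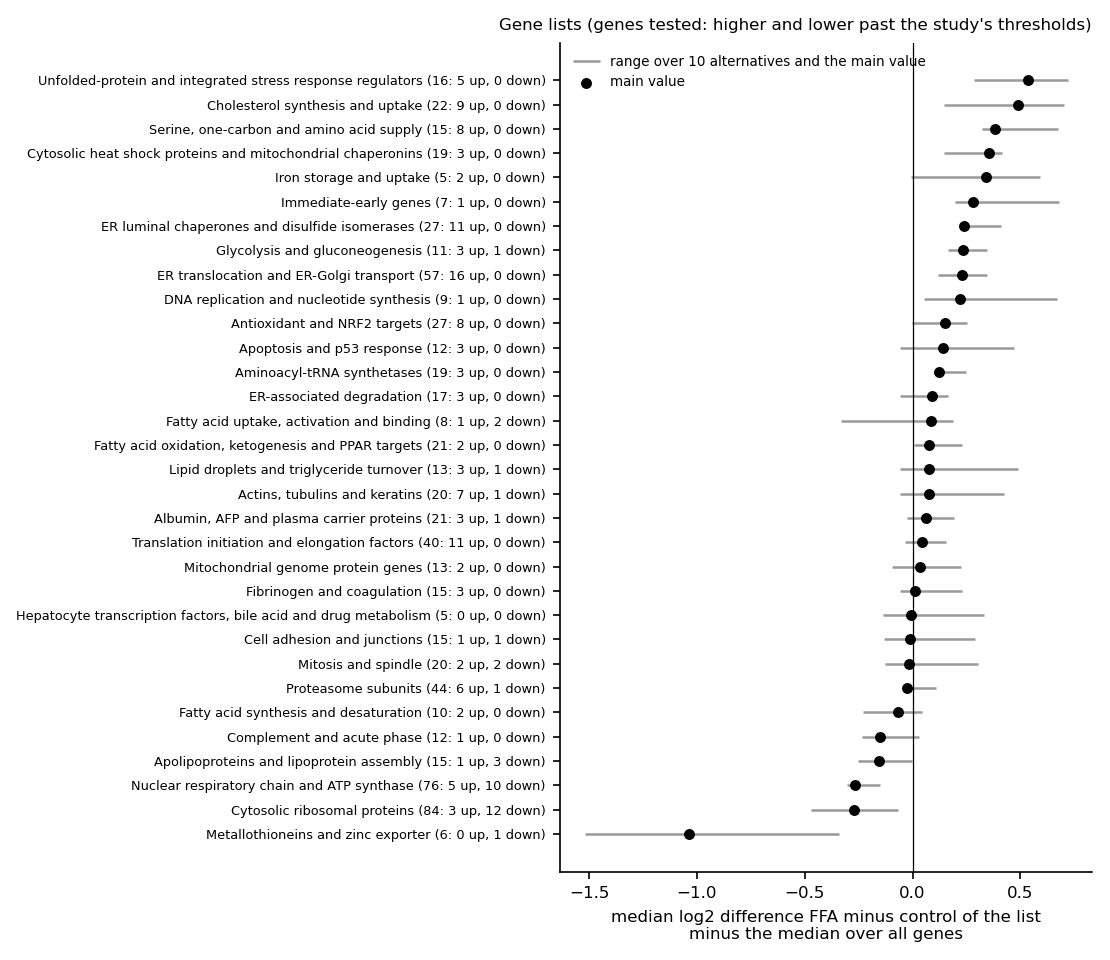
Median log2 difference FFA minus control of each of 32 gene lists, minus the median of all genes, as a black point, with a gray line for its range over up to 10 alternative settings. The numbers in brackets are the members and how many were higher or lower under the study's thresholds. The stress regulators (0.536) and cholesterol synthesis (0.491) lie farthest to the right and the metallothioneins (-1.039) farthest to the left.

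The remaining genes that rose had varied roles. PRELID1, which carries phosphatidic acid across the mitochondrial intermembrane space, went from 60.4 and 61.6 CPM to 139 and 164 CPM (2.45-fold). MAP1LC3B, the LC3 protein of autophagosome membranes, went from 167 and 157 CPM to 287 and 338 CPM. IGFBP1, a secreted binding protein of insulin-like growth factors, went from 325 and 328 CPM to 511 and 728 CPM. PRKRA, an activator of the kinase PKR, showed the largest change of the 16, from 18.6 and 20.5 CPM to 61.2 and 76.4 CPM (3.38-fold, adjusted p = 0.0236). ATP1B3, EIF5A, SYNGR2, TUBA1B and MT-ND4 completed the 16, with changes between 0.54 (MT-ND4) and 1.56 (ATP1B3) on the log2 scale. They encode a subunit of the sodium pump, a translation factor, a vesicle protein, an alpha tubulin and a subunit of respiratory complex I.

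In the lists of lipid droplets, fatty acid handling and cholesterol synthesis 0 genes passed the adjusted threshold. PLIN2, which coats lipid droplets and is the usual marker of fat loading, was at 174 and 164 CPM in the controls and 203 and 397 CPM with FFA (log2 0.74 ± 0.24 (SE), adjusted p = 0.194). FFA replicate 1 was close to the controls and FFA replicate 2 well above them. Of 13 members in the list of lipid droplets and triglyceride turnover, PLIN2, AUP1 and ACAT1 (a mitochondrial thiolase of ketone body turnover) were higher under the study's thresholds. PNPLA3, a droplet protein, was lower (48.8 and 33.2 CPM against 14.1 and 29.1 CPM, adjusted p = 0.329). Of 21 genes of fatty acid oxidation and PPAR targets, 2 passed as higher, a share no larger than the 10.3% of all genes. They were HADHA and HADHB, the subunits of the mitochondrial trifunctional protein. HADHB was at 72.0 and 67.4 CPM without FFA and 98.9 and 185 CPM with it, and HADHA at 78.9 and 77.2 CPM and at 115 and 109 CPM. FABP1, the abundant fatty acid binding protein of the liver, was lower under the study's thresholds, at 10921 and 9847 CPM in the controls and 7592 and 9790 CPM with FFA, a gap that came mainly from FFA replicate 1. CPT1A, the entry step of mitochondrial oxidation, and DGAT2, an enzyme of triglyceride synthesis, had 0 to 4 reads per library, so a change in them was not detectable at this depth. FASN (2 to 5 reads) and HNF4A (0 to 3 reads) also had means under 10 CPM. SCD, the main desaturase, was a member but its groups overlapped (32.5 and 17.6 CPM against 21.2 and 21.8 CPM).

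Cholesterol synthesis was the lipid pathway with the most genes past the study's thresholds, 9 of 22 members and 0 lower (median change 0.629). FDFT1, squalene synthase, was at 239 and 236 CPM without and 346 and 513 CPM with FFA (adjusted p = 0.0886). IDI1 was at 83.6 and 61.6 CPM and at 113 and 167 CPM. HMGCS1, an early enzyme of the pathway, was at 46.4 and 23.5 CPM and at 54.2 and 65.5 CPM. These 3 genes had higher values in both FFA libraries than in both controls, though 0 members of the list passed the adjusted threshold.

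Of 21 plasma carrier proteins, AHSG, AFP and RBP4 were higher and TTR lower under the study's thresholds. ALB, serum albumin, overlapped between the groups, with 7470 and 6268 CPM in the controls and 6556 and 9536 CPM with FFA (log2 0.21 ± 0.14 (SE), adjusted p = 0.524). AFP, a separate gene of the albumin family, was at 4106 and 3664 CPM without FFA and at 4692 and 6396 CPM with it. AHSG (fetuin-A) was at 2848 and 2844 CPM and at 3837 and 4024 CPM. Both AFP and AHSG passed the study's thresholds but not the adjusted one (0.159 and 0.101). TTR, transthyretin, was at 822 and 765 CPM without and 542 and 499 CPM with FFA (log2 -0.61 ± 0.15 (SE)), with an adjusted p of 0.101 by limma and 0.0104 by edgeR. Of 15 apolipoproteins and assembly factors, APOC3, APOC1 and APOC2 were lower under the study's thresholds, and P4HB, already named above, was the member that was higher. APOC3, an inhibitor of lipoprotein lipase, was at 676 and 570 CPM in the controls and 514 and 349 CPM with FFA. APOA1, APOA2 and APOB did not pass, and their changes were between -0.13 and 0.15 on the log2 scale.

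The ferritin chains were higher and the metallothioneins lower in value. FTL and FTH1, the chains of the iron store ferritin, passed the study's thresholds. FTL was at 11924 and 11683 CPM without FFA and at 13107 and 20595 CPM with it, and FTH1 at 2549 and 2259 CPM and at 2958 and 4220 CPM. Of 27 antioxidant genes and NRF2 targets 8 passed as higher and 0 as lower, led by NQO1 (416 and 421 CPM against 596 and 677 CPM). Over the alternative settings the medians of the iron and antioxidant lists reached down to -0.009 and -0.001 relative to all genes, so their direction was not held throughout. The median of the 6 members among metallothioneins and zinc transporters was -0.900, below 0 for each of the 6. Relative to all genes, this median ranged from -1.521 to -0.342 over the alternative settings. SLC39A14, a zinc importer, was the member that passed (55.7 and 22.5 CPM against 18.8 and 10.9 CPM). MT1X was at 37.1 and 30.3 CPM without and 18.8 and 18.2 CPM with FFA (unadjusted p = 0.0577 by limma), and MT2A overlapped between the groups (125 and 153 CPM against 91.9 and 135 CPM). In the FFA libraries SLC39A14 had 8 and 3 reads and MT1X 8 and 5 reads, at or close to the floor of 3 reads. Of 19 cytosolic heat shock proteins and mitochondrial chaperonins, STIP1, HSPA8 and AHSA1 passed as higher and 0 as lower.

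Ribosomal protein and respiratory chain genes had lower values than the bulk of the genes. Of 84 ribosomal protein genes, 12 were lower and 3 higher under the study's thresholds, with a median of -0.132, and 69 lay below 0. RPS29 was at 7409 and 7890 CPM in the controls and 6087 and 4817 CPM with FFA (log2 -0.50 ± 0.12 (SE), adjusted p = 0.101). RPL13 went the other way, with 2094 and 2048 CPM against 2473 and 2889 CPM. Of 76 nuclear genes of the respiratory chain and ATP synthase, 10 were lower, COX7C and NDUFC2 among them, and 5 higher, with CYC1 (39.5 and 37.1 CPM against 75.4 and 83.7 CPM) the highest. The mitochondrial genome's own protein genes had a median of 0.173 over 13 members, of which MT-ND4 rose (2351 and 2339 CPM against 3321 and 3504 CPM, adjusted p = 0.0409). Of 40 translation factors 11 were higher under the study's thresholds and 0 lower (median change 0.181). EIF5A rose from 132 and 126 CPM to 226 and 378 CPM, and EEF1A1 was at 5341 and 5047 CPM without and 6699 and 6818 CPM with FFA.

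**Figure D4:**
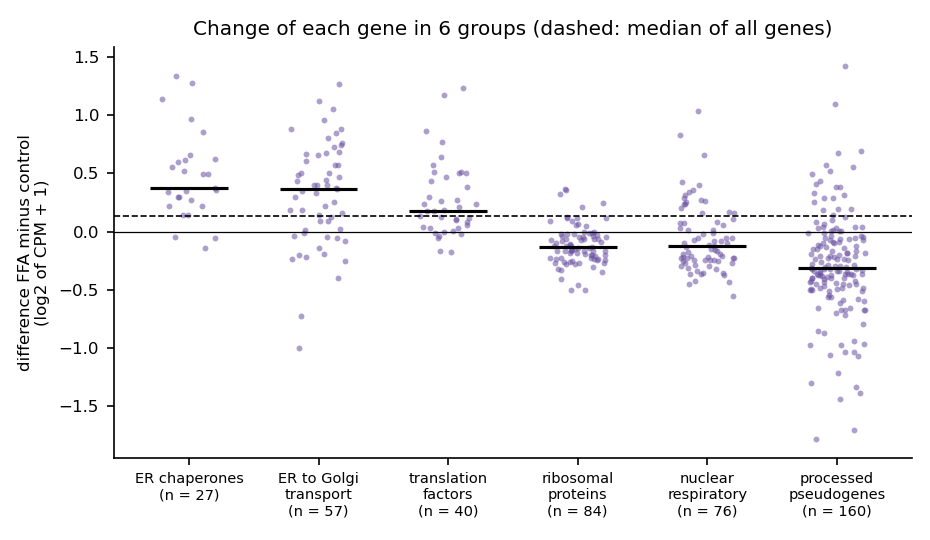
Difference FFA minus control (log2 of CPM + 1) of each member of 6 groups, with a black bar at the group's median and a dashed line at the median of all genes (0.14). ER chaperones (median 0.376) and transport genes (0.369) lie above the dashed line, while ribosomal proteins (-0.132), nuclear respiratory genes (-0.127) and processed pseudogenes (-0.310) lie below it.

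These groups differ in transcript length as well. The group of 930 protein-coding members with the shortest canonical transcripts (105 to 1219 nt) had a median change of -0.001, beside 0.276 in the next 926 (1221 to 1907 nt) and 0.108 in the longest 925. The median length was 878 nt for ribosomal proteins, 830.5 nt for nuclear respiratory genes and 2409 nt for ER chaperones. Against the control mean the shortest group stood at -0.021 in FFA replicate 1 and 0.052 in FFA replicate 2, and the next group at 0.205 and 0.380. Over all 4637 protein-coding members, the change correlated with log2 transcript length at 0.024 (Pearson). That correlation was 0.080 for FFA replicate 1 and -0.025 for FFA replicate 2, each against the control mean. For control replicate 2 minus control replicate 1 it was -0.086. The part of length in the group differences was not tested.

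Both genes that fell were pseudogenes of one parent. EEF1B2P3 fell from 490 and 579 CPM to 285 and 269 CPM, and EEF1B2P2 from 156 and 161 CPM to 70.7 and 29.1 CPM (both adjusted p = 0.0236). EEF1B2P6 had 74.3 and 91.9 CPM without FFA and 47.1 and 21.8 CPM with it (adjusted p = 0.145). Their parent EEF1B2, a subunit of the elongation factor that reloads EEF1A with GTP, was at 2119 and 2258 CPM in the controls and 2410 and 2110 CPM with FFA, so its groups overlapped. Processed pseudogenes are near-identical to their parents' messages, and reads can be split between the copies, so these values are uncertain as a measure of pseudogene transcription. Of 160 processed pseudogenes among the members, 32 (20%) were lower under the study's thresholds and 0 higher, beside 3.39% and 10.3% of all genes.

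Of the 15 genes with the smallest p among those lower under the study's thresholds, TFF3, TTR, RPS29, EEF1B2P2, EEF1B2P3 and EEF1B2P6 are given above. Among the others were the pseudogenes AC099560.2 (214 and 222 CPM against 125 and 98.2 CPM, adjusted p = 0.0522), AL136454.1, AC090114.1 and RPS27AP16. AL136454.1 was at 873 and 946 CPM without and 653 and 629 CPM with FFA, AC090114.1 at 720 and 802 CPM and at 558 and 520.3 CPM, and RPS27AP16 at 1764 and 2129 CPM and at 1501 and 1346 CPM. The ribosomal protein gene RPS21 was at 5780 and 6080 CPM without FFA and 4916 and 4082 CPM with it, and RPS27L, a paralog of RPS27, at 682 and 754 CPM and at 506 and 509 CPM. EXOSC6, a subunit of the RNA exosome, had 541 and 464 CPM against 332 and 313 CPM, and LRPPRC, which stabilizes mitochondrial messages, had 76.6 and 54.7 CPM against 30.6 and 25.5 CPM. SNORD13, a small nucleolar RNA, had 216 and 172 CPM against 120.1 and 102 CPM. For these 9 genes the groups did not overlap and the adjusted p was 0.0522 to 0.177 (limma).

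The most abundant members were MT-RNR2, FTL, APOA2, SERPINA1 and RPL37A. MT-RNR2, the large ribosomal RNA of mitochondria, was at 73034 and 65608 CPM in the controls and 64333 and 54678 CPM with FFA. SERPINA1, the antitrypsin secreted by the liver, was at 12279 and 11189 CPM without and 12972 and 13971 CPM with FFA. RPL37A was at 10529 and 10654 CPM and at 9439 and 8066 CPM, and APOA2 at 12376 and 12682 CPM and at 11149 and 11806 CPM. Of these 5 genes 0 passed the adjusted threshold, their changes lying between -0.28 (RPL37A) and 0.48 (FTL) on the log2 scale.

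Cell cycle, adhesion and death genes had 0 members past the adjusted threshold. Of 20 mitosis genes, CDK1 and CENPF were higher and STMN1 and UBE2C lower under the study's thresholds. CDK1, the kinase that starts mitosis, had 13.9 and 8.80 CPM without FFA and 25.9 and 29.1 CPM with it, which is close to the floor of 3 reads. TOP2A, a topoisomerase of dividing cells, did not pass (65.0 and 53.8 CPM against 49.5 and 32.8 CPM, adjusted p = 0.457). Of 15 adhesion genes, F11R, a tight junction protein, was higher, and CTNNB1 (beta-catenin, 37.1 and 30.3 CPM against 14.1 and 18.2 CPM) lower. BAX, CYCS and BNIP3 were higher among 12 apoptosis and p53 genes, whereas CDKN1A, a p53 target, did not pass. Of 20 actin, tubulin and keratin genes 7 were higher under these thresholds and EZR was lower. TUBA1B was the one that rose (151 and 154 CPM against 259 and 313 CPM, adjusted p = 0.0447).

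The FFA contrast in co-cultured HepG2 has its own control libraries and was set beside the mono-culture values. Its FFA libraries held 147096 and 49634 reads, far fewer than the others, so 1 read stood for up to 20.1 CPM. All 16 genes that rose in mono-culture had a positive difference in co-culture too, and HERPUD1, HSPA5, P4HB, TMED2 and MAP1LC3B also passed the adjusted threshold there, where 0.601% of genes passed as higher and 0.582% as lower. The smallest of these differences, for PRKRA, was 0.15 ± 0.34 (SE) on the log2 scale, with 5 and 2 reads in the FFA libraries. For the genes that fell, the co-culture differences were -0.24 ± 0.16 (SE) for EEF1B2P3 and -0.02 ± 0.45 (SE) for EEF1B2P2. HERPUD1 was at 153 and 148 CPM in the co-culture controls and at 551 and 1007 CPM with FFA, and HSPA5 at 1457 and 1318 CPM and at 3855 and 2962 CPM. PSAT1 was at 136 and 140 CPM and at 408 and 524 CPM. The co-culture differences of these 3 genes were 2.30, 1.29 and 1.74 on the log2 scale, beside 1.16, 0.66 and 0.76 in mono-culture. Of the 529 genes higher under the study's thresholds in mono-culture, 423 (80%) had a positive difference in co-culture, beside 61.9% of all genes with a positive difference in mono-culture and 54% of all genes. The difference between the cultures was tested itself, as an interaction over 8 libraries, and 0 of 5157 genes passed at an adjusted p under 0.05 by limma or by edgeR, while 384 (7.45%) had an unadjusted p under 0.05 by limma. Without co-culture FFA replicate 1 the count was 1551 and without its replicate 2 it was 119, so it rests on these 2 shallow libraries, and with both a difference between the cultures was not detectable for the genes named here.

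**Figure D5:**
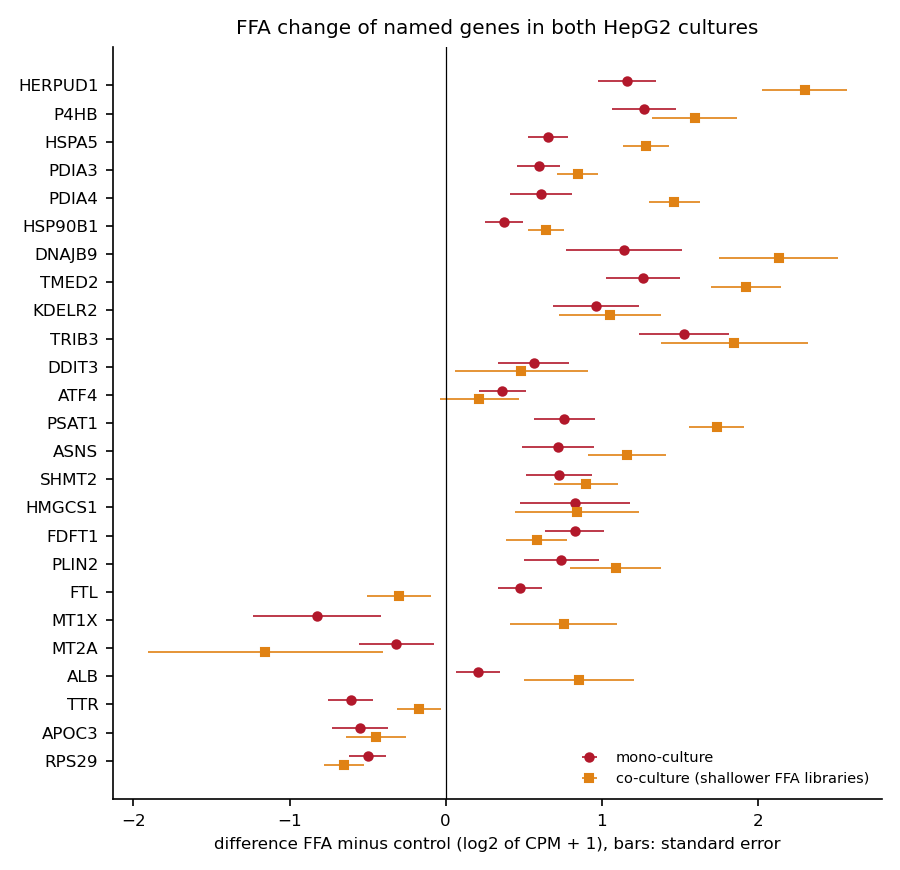
Difference FFA minus control (log2 of CPM + 1) of 25 named genes in mono-culture (red circles) and co-culture (orange squares), with bars for the standard error. HERPUD1 lies at 1.16 and 2.30 and HSPA5 at 0.66 and 1.29, right of 0 in both cultures, while FTL and MT1X lie on opposite sides of 0.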

How the data were processed

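Polyadenylated RNA of HepG2 cells was reverse-transcribed, amplified by PCR and read on a Nanopore device, per the labels. The authors deposited values under the name TPM. In every library these proved to be multiples of a single step (100% of values, allowing 0.0101 CPM plus a relative 0.0002 for rounding), so the deposited values were used as CPM and the reads recovered from the step. The submitters' processing notes name minimap2 2.22 and GRCh38. The study's methods describe Bowtie, STAR and RSEM for mRNA-seq, and whether these were used here is not given in the sources used here. Symbols and identifiers come from the files, and 99.459% of 60623 identifiers were in GENCODE 44.

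For the 4 libraries, log2 (CPM + 1) of the genes whose mean reached 10 CPM was fitted with limma 3.58.1 (R 4.3.3, trended prior variance), two-sided, with Benjamini-Hochberg adjustment. A fold change on this scale understates the change of scarce genes. The interaction was fitted over 8 HepG2 libraries. edgeR 4.0.16 and DESeq2 1.42.0 on the recovered reads were alternatives, beside other pseudocounts, filters, scalings, priors and left-out libraries. On counts simulated at the depths of these libraries (100 genes changed 2-fold and 100 changed 4-fold), limma called 74 and 100 of these and 3 false genes. The changed genes were drawn from the more abundant ones, and all simulated libraries had the same spread beyond counting error. These numbers therefore do not carry over to scarce members or to FFA libraries that differ from each other. The promoters are RefSeq's (GRCh38.p14).

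Named were preset genes, genes past the adjusted threshold (up to 20), the 15 genes of smallest p in each direction past the study's thresholds without overlap, up to 3 per list and direction, and the 5 most abundant. A selection of the preset and list genes is printed, and some genes are not reported here. CALR, CANX, CRELD2 and HYOU1 (promoter matches), ATF6, PDIA6, EEF1B2, LYZ, SRP68, SRP54, SRP9, SRPRA and the interferon genes were added after their values were seen. DNAJB11, ERP44 and TXNDC12 (chaperones without a promoter match) were added in the same way. The members and the 35 lists were chosen with earlier results of these data known.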

Additional observations from a re-analysis of the deposited data

Results flagged for a closer look

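For 10 of the genes named both FFA libraries moved one way from their controls in mono-culture and both moved the other way in co-culture. The difference was fitted as an interaction, and for each of them the adjusted p was 0.662 (limma), so it did not pass, and the co-culture FFA libraries are shallow enough that a few reads set some of these values. SLC39A14 had a difference of log2 changes, mono-culture minus co-culture, of -3.238, and its co-culture values were 24.1 and 24.3 CPM without FFA and 81.6 and 120.9 CPM with it. PNPLA3 (-2.332) stood at 36.8 and 28.6 CPM and at 61.2 and 120.9 CPM in co-culture, and EZR (-2.165) at 36.2 and 29.6 CPM and at 54.4 and 120.9 CPM. CTNNB1 differed by -1.737 and MT1X by -1.581 between the cultures. TK1, a thymidine kinase of dividing cells, differed by 4.151, from 2.32 and 5.86 CPM to 18.8 and 14.6 CPM in mono-culture and from 20.5 and 14.8 CPM to 13.6 and 0 CPM in co-culture. SRPRA (4.053), AHSA1 (1.337), PSMG4 (1.482) and FTL (0.777) were, like TK1, higher with FFA in mono-culture and lower in co-culture. FTL was at 14443 and 15257 CPM in the co-culture controls and 13800.1 and 10537 CPM with FFA.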

How the results depend on the processing

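All 18 genes past the adjusted threshold kept their direction under every alternative run. Their number moved from 18 to 44 with no filter on low values, 122 among genes of at least 100 CPM, 1 after quantile normalization, and 0 with a constant prior variance or with one fit to all 8 HepG2 libraries. It was 44 with limma-voom (14 higher, 30 lower) and 52 with DESeq2 (3 higher, 49 lower), which gave no adjusted p for 4799 genes, 14 of the 18 among them, and called 4 of the 4 it gave. Leaving out 1 library gave 2 to 570 genes, where the lone library is assumed to vary like the others. Genes past the study's thresholds numbered 273 at 100 CPM, 360 with 8 libraries, 215 with DESeq2 and 223 at an unadjusted p under 0.01, and 294 to 1339 without 1 library. They split into 275 higher and 276 lower after quantile normalization, 328 and 411 with edgeR and 364 and 382 with limma-voom, so the split depends on scaling. Genes whose groups did not overlap numbered 4685 with no filter or at least 1 CPM in 1 group, 616 at 100 CPM, and 3462 to 4134 without 1 library. The interaction gave 0 to 1551 genes when 1 library was left out. ISG15 reversed to -0.212 without FFA replicate 2 and stood at 2.492 without FFA replicate 1. Relative to all genes, 15 of 32 list medians kept their direction under all alternatives. With the replicate block 70 genes passed the adjusted threshold, and 764 passed the study's thresholds. The labels share only replicate numbers between groups, and deviations of same-numbered libraries correlated at 0.0339 across 5157 genes, which are not independent replicates.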

Other observations

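Among genes outside the lists, some interferon-induced genes were high in FFA replicate 2, and they were picked out after their values were seen. ISG15, a ubiquitin-like protein induced by interferon, was at 41.8 and 45.9 CPM in the controls, 37.7 CPM in FFA replicate 1 and 251 CPM in FFA replicate 2. IFI6 was at 2.32 and 1.95 CPM without FFA and 7.06 and 94.6 CPM with it, and IFI27 at 0 in both controls and 2.36 and 54.6 CPM with FFA. OAS1, which makes the activator of an antiviral nuclease, had 2.32 and 3.91 CPM against 14.1 and 25.5 CPM. By edgeR the adjusted p was 0.00967 for IFI6 and 0.0127 for IFI27, and by limma 0.193 and 0.373. The differences of ISG15, IFI6 and IFI27 rest mainly on 1 library, the shallowest of the 4. OAS1 was higher in both FFA libraries than in both controls, with few reads in each library.

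Among glycolysis genes 3 of 11 were higher and 1 lower under the study's thresholds, and among proteasome subunits 6 of 44 were higher and 1 lower, the latter close to the shares over all genes (10.3% higher and 3.39% lower). PGK1 and ENO1, enzymes of lower glycolysis, were at 97.5 and 112 CPM and at 413 and 369 CPM in the controls, against 160 and 186 CPM and 485 and 644 CPM with FFA. CFB, a complement protease, was the member of 12 complement and acute phase genes past these thresholds (90.5 and 111 CPM against 160 and 175 CPM).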
